A study of Homo sapiens with 21 samples.

Results

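Keratins and claudins were examined in stem cell-derived islets as 2 gene families that mark and hold together epithelial cells. The members are all genes of the count table whose symbol is KRT or CLDN followed directly by a digit, leaving out symbols with a hyphen and pseudogenes whose symbol ends in P or in P and digits. The rule found 79 of 62699 genes, of which 55 are keratins and 24 are claudins. The islets were differentiated from H1, a human embryonic stem cell line, in 4 genotypes: unedited cells (WT) and lines labelled ISL1-/-, PAX6-/- or PDX1-/-, which carry a knockout of a transcription factor of the pancreatic endocrine lineage. On day 11 of differentiation all cells were dissociated and given a lentivirus that carried either BFP, a blue fluorescent protein, or ISL1 with BFP, and on day 18 the BFP-positive cells were sorted and their RNA was sequenced. WT had 2 libraries with each vector, PDX1-/- had 3 with BFP and 2 with ISL1, and ISL1-/- and PAX6-/- had 3 with each vector. Whether a genotype is 1 clone or several, and whether its libraries come from separate differentiations, is not given in the sources used here, so p-values measure the spread between these libraries, which may be technical.

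Keratins are the intermediate filament proteins of epithelial cells. A type I keratin pairs with a type II keratin to build a filament, and simple epithelia such as pancreatic duct and gut use the type II keratins KRT7 and KRT8 with the type I keratins KRT18, KRT19 and KRT20, while most other keratins belong to skin, hair and other layered epithelia. Claudins are membrane proteins of the tight junction, where they join neighbouring cells and set which ions and small molecules pass between them. Some, such as CLDN1, CLDN3 and CLDN4, mainly seal the junction, and others, such as CLDN2 and CLDN15, form pores for cations.

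Each library held about 36800000 to 60200000 counts, with a median of about 50400000. Mitochondrial genes took 3.16% of the counts in PAX6-/- with ISL1 replicate 3 and 3.84% in PDX1-/- with ISL1 replicate 4, against 1.28% to 1.93% in the other 19 libraries. In the same 2 libraries, genes with under 2 kb of exon sequence stood higher relative to genes with over 6 kb than in the mean of the other libraries of their groups, by 0.75 and 0.98 on the log2 scale (for PDX1-/- with ISL1 replicate 4 that mean is replicate 2 alone). In WT the gene ISL1 had 412.5 ± 150.0 CPM (counts scaled to library size, mean ± SD, n = 2) under the BFP vector and 349.5 ± 16.9 CPM (n = 2) under the ISL1 vector, so its counts do not show the vector. ISL1 had 76.9 ± 4.79 (SD, n = 3) in ISL1-/- with BFP. The gene counts of PAX6 and PDX1 were not lower in the lines labelled as their knockouts than in the other knockout lines. Endocrine genes were high in all libraries: 8 general endocrine markers summed to between 12320 and 55810 CPM, while 7 matched markers of layered epithelium summed to at most 3.23 CPM. The endocrine sum differed by group. It was 49680 to 55810 CPM in PDX1-/- with BFP and 22850 to 27820 CPM in WT with BFP. In ISL1-/- and PAX6-/- with BFP it was 26820 to 36950 CPM and 17910 to 30580 CPM. In bulk RNA, a lower share of cells that express a gene and less RNA per cell cannot be told apart, which holds for every difference given here.

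Few members were abundant. Of the 79, 17 exceeded 10 CPM in at least 1 library and 10 exceeded 100 CPM, while 9 had no count in any library: CLDN22, CLDN25, KRT6C, KRT33B, KRT75, KRT76, KRT78, KRT82 and KRT84. The filter on low counts kept 35 members, 18 keratins and 17 claudins. None of the 44 others exceeded 0.388 CPM in any library, the highest being KRT13 in PDX1-/- with ISL1 replicate 2. KRT5 and KRT14, the keratin pair of basal cells in layered epithelia, were among those and did not exceed 0.133 and 0.148 CPM. KRT8, KRT18 and KRT19 together took 94.3% to 96.8% of keratin CPM in each of the 21 libraries. Per kilobase of exon, KRT19 led with a mean of 552 CPM per kb over all libraries, followed by KRT8 with 137 and KRT18 with 126. Among claudins, CLDN6 (94.4 CPM per kb), CLDN3 (93.9), CLDN7 (91.4) and CLDN4 (79.7) stood far above CLDN23 (13.2) and CLDN5 (13.0). The means of the first 4 differ by less than any of them varied between groups, so their order is not fixed. They supplied 64.6% to 92.5% of claudin CPM.

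In the test across all 8 groups, 19 of the 35 tested members differed at an adjusted p under 0.05 in edgeR's quasi-likelihood test, 10 claudins and 9 keratins. The same test called 22.5% of all 25884 genes. KRT20, CLDN1 and CLDN4 had the smallest adjusted p-values (1.22e-05, 2.64e-05 and 3.48e-05). CLDN8, KRT18, KRT19, KRT222, KRT23 and KRT4 lost this call in at least 1 of the 21 fits that each left out 1 library (largest adjusted p = 0.105, for KRT23), and the other 13 kept it in all of them.

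In the BFP groups, the sealing claudins CLDN4 and CLDN1 were lower in all 3 knockouts than in WT. CLDN4 had 660.2 and 696 CPM in the 2 WT libraries. It had 265, 193 and 231 CPM in ISL1-/-, 175, 231 and 188 in PAX6-/- and 305, 349.6 and 348 in PDX1-/-. The knockout libraries thus lay below both WT libraries without overlap, with PDX1-/- the closest to WT. The log2 fold change of CLDN4 against WT was -1.56 ± 0.26 (SE, adjusted p = 0.0017) in ISL1-/-, -1.78 ± 0.26 (adjusted p = 0.000971) in PAX6-/- and -1.02 ± 0.26 (adjusted p = 0.0191) in PDX1-/-. CLDN1 had 48.2 and 64.5 CPM in WT, 24.01, 19.7 and 14.8 in ISL1-/-, 17.2, 16.7 and 16.6 in PAX6-/- and 9.35, 10.8 and 13.2 in PDX1-/-. Again no knockout library reached WT, and here PDX1-/- was the lowest. The fold changes of CLDN1 were -1.53 ± 0.27 (adjusted p = 0.00241), -1.74 ± 0.27 (adjusted p = 0.00141) and -2.34 ± 0.27 (adjusted p = 0.000164), in the same order of genotypes. Markers of another cell type were also lower in the 3 knockouts. The 6 liver markers summed to 14460 and 16260 CPM in WT with BFP and to 6323 to 9001 in ISL1-/-. They summed to 4843 to 6707 in PAX6-/- and to 3558 to 4003 in PDX1-/-. Of the 5 tested, 1, 4 and 4 were called lower. Among the knockouts this sum was lowest in PDX1-/-, as CLDN1 was, while CLDN4 was closest to WT there. The part of these liver markers in the claudin differences was not tested.

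CLDN7, a claudin of many epithelia that also binds the adhesion protein EPCAM, had 466 and 520.4 CPM in WT with BFP. The 9 knockout libraries with BFP lay between 123 and 189 CPM. CLDN7 fell by 1.78 ± 0.47 on the log2 scale in ISL1-/- (adjusted p = 0.0335) and by 1.83 ± 0.47 in PDX1-/- (adjusted p = 0.0195), and its value in PAX6-/- was -1.57 ± 0.47 (adjusted p = 0.0607), which did not pass. CLDN6, a claudin of embryonic epithelia, had 210.3 and 201 CPM in WT, 78.5, 60.8 and 79.8 in ISL1-/- and 84.5, 63.3 and 68.0 in PDX1-/-. It fell by 1.49 ± 0.31 in ISL1-/- (adjusted p = 0.00841) and by 1.52 ± 0.31 in PDX1-/- (adjusted p = 0.00513). In PAX6-/- CLDN6 had 109, 163.5 and 146 CPM, with a fold change of -0.56 ± 0.31 (adjusted p = 0.364). CLDN3, whose span used for counting lies 29272 bases from that of CLDN4, did not pass in any knockout. It had 113 and 138 CPM in WT against 102, 78.2 and 105.5 in ISL1-/-, 82.9, 75.6 and 99.0 in PAX6-/- and 119, 150.4 and 132 in PDX1-/-. The ratio of CLDN4 to CLDN3 per kb was 1.59 and 1.37 in WT with BFP and 0.51 to 0.83 in the 9 knockout libraries with BFP.

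Leaving out 1 of the 5 libraries in turn ended some of these calls. CLDN4 kept its call in ISL1-/- and PAX6-/- in all 5 fits. In PDX1-/- it lost it in every fit (largest adjusted p = 0.119). CLDN1 lost its call in ISL1-/- without WT with BFP replicate 3 (adjusted p = 0.0547) and kept it in the other genotypes. CLDN7 lost both of its calls in every fit (largest adjusted p = 0.179 and 0.105). CLDN6 lost its call in ISL1-/- without either WT library (largest adjusted p = 0.0698).

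**Figure D1:**
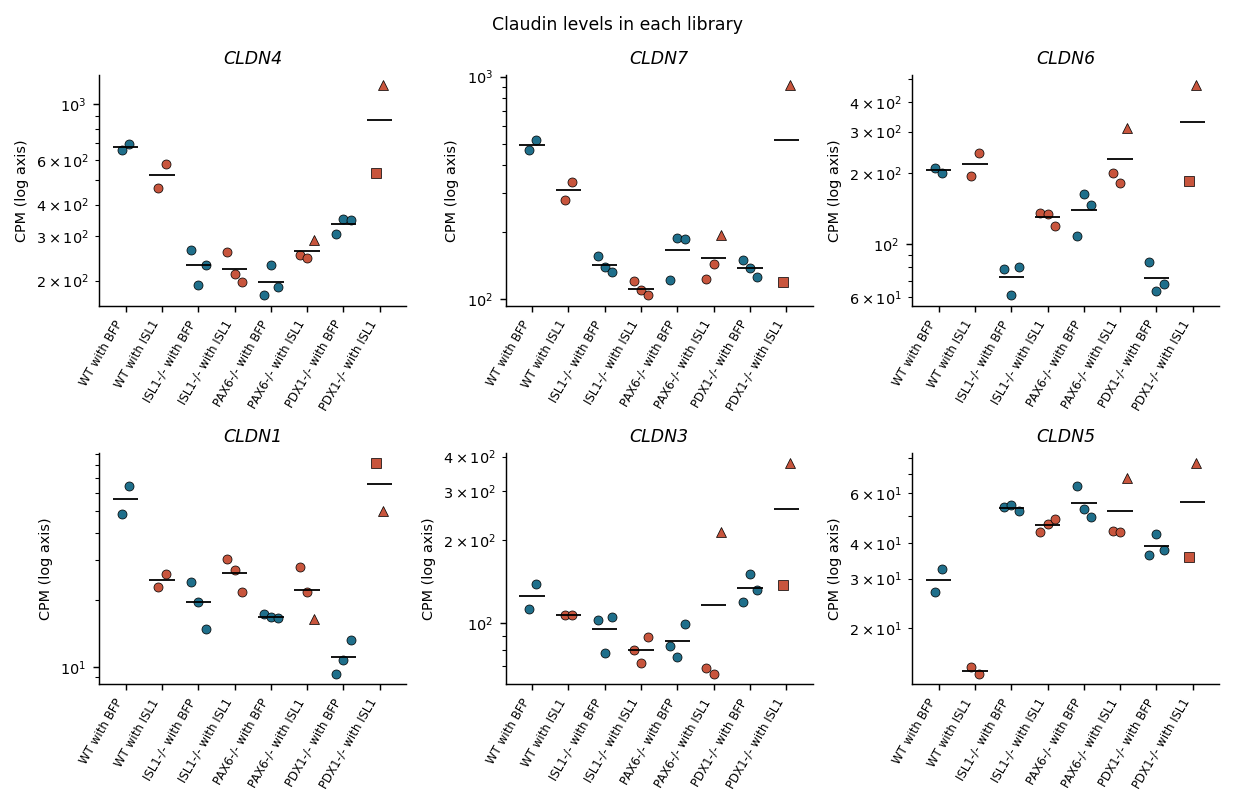
Level of 6 claudins in each library, in CPM on a log axis, by group. Blue points are BFP libraries and red points ISL1 libraries, black bars are group means, triangles are the 2 libraries with over 3% mitochondrial counts and squares are PDX1-/- with ISL1 replicate 2. For CLDN4, the knockout libraries with BFP lie between 175 and 349.6 CPM, below the WT libraries at 660.2 and 696.

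In total, 6 of the 35 tested members were called in ISL1-/- against WT with BFP, all lower, where 5.59% of all genes were called. In PAX6-/- 5 were called, 4 lower and 1 higher, against 5.51% of all genes. In PDX1-/- 9 were called, 8 lower and 1 higher, against 9.68% of all genes. The share of tested members called was 17.1%, 14.3% and 25.7%. The median log2 fold change of the 17 tested claudins was -1.49, -0.55 and -1.02 in ISL1-/-, PAX6-/- and PDX1-/-, and that of the 18 tested keratins was -0.54, -0.02 and -0.90, while the medians of all tested genes were 0.02, 0.03 and 0.03. The 3 comparisons share the WT libraries, so their common direction is not independent. Without the 2 libraries with over 3% mitochondrial counts, which are in none of these groups but enter the shared estimate of the spread, 16, 13 and 21 members were called. The share of all genes called in that fit is not given here, so these counts are not read as a result about the members.

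The members called lower in at least 2 of the 3 knockouts were CLDN1, CLDN4, CLDN6, CLDN7, CLDN11 and KRT20. Their upstream windows are shown because these 6 were called lower in more than 1 genotype. In PAX6-/-, CLDN6, CLDN7 and CLDN11 did not pass. Each window is the 250 bases before the RefSeq start of the gene on GRCh38.p14, 5′ to 3′ on the strand of the gene. The windows of CLDN4, CLDN6 and CLDN7 lie inside the gene spans used for counting, which start further upstream. Capitals mark TAAT or its complement ATTA, the core that many homeodomain factors bind. The windows are chr3:190322447-190322696 (minus strand), chr7:73830746-73830995 (plus), chr16:3018184-3018433 (minus), chr17:7263214-7263463 (minus), chr3:170418618-170418867 (plus) and chr17:40885243-40885492 (minus).
CLDN1: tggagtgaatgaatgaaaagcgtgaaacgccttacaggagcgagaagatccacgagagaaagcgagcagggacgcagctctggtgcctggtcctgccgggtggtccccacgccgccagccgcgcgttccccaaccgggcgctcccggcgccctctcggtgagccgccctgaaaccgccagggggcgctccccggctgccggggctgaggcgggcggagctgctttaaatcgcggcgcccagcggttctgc
CLDN4: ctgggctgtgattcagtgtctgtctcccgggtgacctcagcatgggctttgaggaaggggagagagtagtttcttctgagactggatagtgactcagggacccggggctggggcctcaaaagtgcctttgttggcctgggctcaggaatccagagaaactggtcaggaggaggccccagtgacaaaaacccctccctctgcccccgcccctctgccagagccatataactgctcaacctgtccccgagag
CLDN6: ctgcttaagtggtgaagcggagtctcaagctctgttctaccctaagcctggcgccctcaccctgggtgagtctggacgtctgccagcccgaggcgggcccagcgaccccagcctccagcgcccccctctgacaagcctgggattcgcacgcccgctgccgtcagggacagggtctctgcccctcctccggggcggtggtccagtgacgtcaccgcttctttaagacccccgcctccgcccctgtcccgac
CLDN7: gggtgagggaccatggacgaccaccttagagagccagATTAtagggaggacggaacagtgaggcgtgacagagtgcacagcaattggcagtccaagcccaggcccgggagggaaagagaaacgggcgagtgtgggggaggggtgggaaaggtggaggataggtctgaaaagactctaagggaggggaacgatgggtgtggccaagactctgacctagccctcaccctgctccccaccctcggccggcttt
CLDN11: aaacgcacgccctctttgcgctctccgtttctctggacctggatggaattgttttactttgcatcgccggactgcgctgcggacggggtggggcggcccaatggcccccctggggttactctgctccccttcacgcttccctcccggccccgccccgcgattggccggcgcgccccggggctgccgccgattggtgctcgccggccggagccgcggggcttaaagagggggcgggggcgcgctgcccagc
KRT20: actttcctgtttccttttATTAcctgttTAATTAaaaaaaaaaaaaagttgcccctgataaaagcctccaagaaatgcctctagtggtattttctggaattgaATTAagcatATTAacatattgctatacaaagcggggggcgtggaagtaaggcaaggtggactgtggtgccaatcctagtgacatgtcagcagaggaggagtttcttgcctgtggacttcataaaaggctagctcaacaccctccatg

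The TAAT core was absent from the windows of CLDN1, CLDN4, CLDN6 and CLDN11, occurred once in CLDN7 and gave 5 matches in KRT20, counting TAATTA as 2 overlapping matches. On either strand it occurs in 48.2% of 27305 windows of this length, and 5 or more matches occur in 6.51% of them. Windows were found for 53 of the 79 members and for 21 of the 35 tested ones, of which 12 (57.1%) hold TAAT. The GC box GGGCGG was found on either strand in the windows of CLDN1, CLDN4, CLDN6 and CLDN11 and in neither of the other 2 shown, and occurs in 42.3% of all windows. The AP-1 pattern TGANTCA had 2 matches in CLDN4 and none in the other 5 windows, and occurs in 6.6% of all windows. The windows of CLDN1, CLDN6 and CLDN11 are rich in G and C (68.8%, 68.0% and 71.2%), and that of KRT20 is not (41.2%), beside a median of 58.0% over all windows. TATAAA was in none of the 6 (11.1% of all windows), the E-box pattern CANNTG was in CLDN7 alone (62.2%), and its form CACCTG was in none (17.5%). A match is a description of the letters, not a binding site.

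The less abundant claudins did not all follow the same pattern. CLDN2, a cation and water pore, had 9.01 and 11.0 CPM in WT with BFP and between 0 and 1.93 CPM in the 9 knockout libraries with BFP. It fell by 4.90 ± 1.04 on the log2 scale in PDX1-/- (adjusted p = 0.00625), and its values in ISL1-/- and PAX6-/- were -3.06 ± 0.95 (adjusted p = 0.0709) and -2.77 ± 0.94 (adjusted p = 0.101). CLDN11, known from myelin and the testis, had 2.50 and 1.75 CPM in WT with BFP, 0.12, 0.23 and 0.05 in ISL1-/- and 0.10, 0.34 and 0.11 in PDX1-/-, but 2.68, 2.25 and 3.76 in PAX6-/-. Its log2 fold change was -4.01 ± 0.95 in ISL1-/- (adjusted p = 0.0181) and -3.49 ± 0.92 in PDX1-/- (adjusted p = 0.0232). Both calls were lost without either WT library and without knockout replicates 1 or 3 (largest adjusted p = 0.112 and 0.147). CLDN23 had 35.8 and 36.8 CPM in WT and 24.2, 19.7 and 23.2 in PAX6-/-, where it fell by 0.70 ± 0.18 (adjusted p = 0.0292), a call lost in each of the 5 fits without 1 library (largest adjusted p = 0.21). In ISL1-/- and PDX1-/- CLDN23 lay between 27.4 and 39.6 CPM.

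CLDN10, a claudin of the kidney and other ducts, had 1.12 and 1.63 CPM in WT with BFP and 0.02 to 0.70 in the 9 knockout libraries with BFP, and no comparison passed. Its highest values were in the 2 libraries with over 3% mitochondrial counts (2.24 and 2.16 CPM).

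CLDN5, the main claudin of endothelium, went the other way in its values. It had 26.9 and 32.3 CPM in WT with BFP, 53.6, 54.5 and 51.9 in ISL1-/-, 64.0, 52.8 and 49.7 in PAX6-/- and 36.4, 43.1 and 37.9 in PDX1-/-. All knockout libraries lay above both WT libraries, yet no comparison passed (log2 fold change 0.85 ± 0.27, adjusted p = 0.079 in ISL1-/-, and 0.91 ± 0.27, adjusted p = 0.0607 in PAX6-/-). A list of 8 other endothelial markers summed to 22.04 to 34.3 CPM in WT with BFP, 18.7 to 21.6 in ISL1-/-, 7.05 to 9.34 in PAX6-/- and 5.92 to 11.1 in PDX1-/-, so its sums were lower in the knockouts while CLDN5 was higher in value. Its called members were ESAM, higher in ISL1-/- as CLDN5 was in value, and PECAM1 and KDR, lower in PAX6-/- and PDX1-/-. CLDN12, which lacks the tail that binds the scaffold protein ZO-1, had 92.9 and 112 CPM in WT with BFP. It had 65.6, 81.1 and 63.9 CPM in ISL1-/-, 97.0, 67.2 and 82.3 in PAX6-/- and 86.5, 107 and 109 in PDX1-/-. The ISL1-/- libraries lay below both WT libraries, and CLDN12 was not called in any knockout with BFP. CLDN12 overlaps other genes on its strand, CDK14 and GTPBP10 among them, and CLDN7, CLDN11 and KRT7 also overlap genes on theirs. CLDN2, CLDN6, CLDN7, CLDN10 and CLDN18 overlap genes on the opposite strand. Reads at these genes may be shared.

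Among the keratins, KRT8 and KRT18, the first pair of simple epithelium, were lower in the BFP knockouts in value but did not pass. KRT8 had 1170 and 1038 CPM in WT with BFP and 722, 649 and 687 in ISL1-/-, 736, 844 and 868 in PAX6-/- and 744, 749 and 629.6 in PDX1-/-. KRT18 had 506 and 417 CPM in WT, 252, 209 and 219.6 in ISL1-/-, 236, 343 and 309 in PAX6-/- and 251, 234.5 and 203 in PDX1-/-. Neither gene's knockout libraries overlapped WT. The log2 fold change of KRT18 was -1.03 ± 0.43 (adjusted p = 0.194) in ISL1-/-, -0.64 ± 0.43 (adjusted p = 0.477) in PAX6-/- and -1.01 ± 0.43 (adjusted p = 0.169) in PDX1-/-, and that of KRT8 was -0.69 ± 0.31 (adjusted p = 0.231), -0.44 ± 0.31 (adjusted p = 0.505) and -0.64 ± 0.31 (adjusted p = 0.232). Without the 2 libraries with over 3% mitochondrial counts both genes passed in all 3 knockouts with like values (KRT18 -1.01, -0.65 and -1.03, KRT8 -0.67, -0.45 and -0.66). KRT8 and KRT18 overlap on opposite strands and have many pseudogenes: 51 KRT8 pseudogenes held 3.19% to 4.45%, and 68 KRT18 pseudogenes 1.62% to 3.53%, of the counts of gene and pseudogenes together, so their counts are uncertain by that order.

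KRT19, a type I keratin of ducts and early pancreatic epithelium, had its lowest values in PDX1-/- with BFP. It had 1152 and 1195 CPM in WT with BFP, 1053, 969 and 1157 in ISL1-/- and 1428, 1243 and 1677 in PAX6-/-, but 609, 545 and 509 in PDX1-/-. The PDX1-/- libraries were the lowest of the 21, and the value against WT was -1.08 ± 0.39 (adjusted p = 0.0957), which did not pass. Compared directly with PAX6-/- in a test added after these values were seen, KRT19 was higher in PAX6-/- by 1.39 ± 0.36 (adjusted p = 0.0442), a call that each of the 6 fits without 1 library lost (largest adjusted p = 0.181). Against ISL1-/- the value was 0.93 ± 0.36 higher in ISL1-/- (adjusted p = 0.158), which did not pass. The ratio of KRT19 to KRT18 per kb was 3.05 to 3.30 in PDX1-/- with BFP and 2.99 and 3.76 in WT with BFP, against 5.49 to 6.92 in ISL1-/- and 4.76 to 7.96 in PAX6-/-. Summed per kb, type I keratins exceeded type II keratins in all libraries, from 3.12 times in PDX1-/- with BFP replicate 2 to 7.92 times in PAX6-/- with ISL1 replicate 3. KRT7, a type II keratin of ducts, had 33.0 and 26.3 CPM in WT with BFP and 13.9, 8.67 and 7.47 in PDX1-/-, with a fold change of -1.57 ± 0.49 (adjusted p = 0.0531). A list of 10 duct markers summed to 199.3 to 281.1 CPM in WT with BFP and to 110.9 to 135.4 CPM in PDX1-/- with BFP. Of its 9 tested genes, 1 was called lower there and 2 higher. Its part in the KRT7 and KRT19 values was not tested.

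The keratins called against WT with BFP were KRT15, KRT20, KRT4 and KRT27. KRT15, a type I keratin of basal and progenitor cells that lies next to KRT19 on chromosome 17, had 6.37 and 6.89 CPM in WT with BFP and 13.5, 14.2 and 12.7 in PAX6-/-. It rose by 1.02 ± 0.28 on the log2 scale (adjusted p = 0.0367), a call lost in each of the 5 fits without 1 library (largest adjusted p = 0.276). KRT15 was 1.47 ± 0.24 higher in PAX6-/- than in PDX1-/- (adjusted p = 0.00183), where it had 6.38, 3.75 and 4.46 CPM, and this call held in all 6 fits without 1 library. KRT20, a type I keratin of gut epithelium, had 1.45 and 1.24 CPM in WT with BFP, 0.21, 0.12 and 0.08 in ISL1-/-, 0.12, 0 and 0.02 in PAX6-/- and 0.15, 0.05 and 0.09 in PDX1-/-. Its log2 fold changes were -3.28 ± 0.76 (adjusted p = 0.0165), -4.82 ± 0.88 (adjusted p = 0.00425) and -3.80 ± 0.81 (adjusted p = 0.0061). In ISL1-/- the KRT20 call was lost without either WT library and without knockout replicates 2 or 3 (largest adjusted p = 0.103), and in the other 2 it held in all 5 fits. A list of 9 intestinal markers summed to 576 to 633 CPM in WT with BFP and to 236 to 379 CPM in the 9 knockout libraries with BFP, and its part in the KRT20 difference was not tested.

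**Figure D2:**
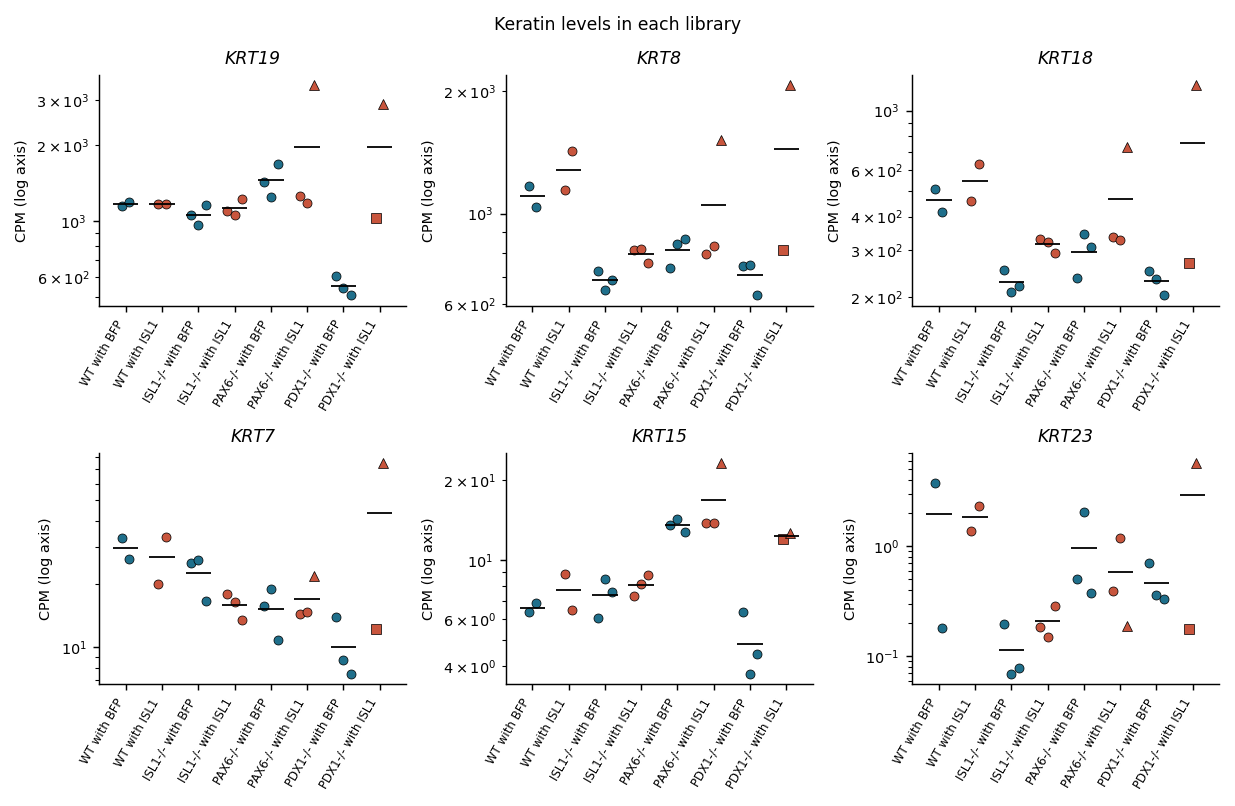
Level of 6 keratins in each library, in CPM on a log axis, by group, with colours, bars and symbols as for the claudins. KRT19 lies at 509 to 609 CPM in PDX1-/- with BFP and at or above 969 CPM in the other groups, and both triangles stand above the other libraries of their groups for KRT19, KRT8 and KRT18.

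Other keratins were close to the limit of detection. KRT27, a keratin of the hair root sheath, had 0.69 to 1.05 CPM in PDX1-/- with BFP against at most 0.07 CPM in WT with BFP, from 124 counts against 3. The ratio was 21.7 (95% interval from counting error only, 7.25 to 106.5), and the test gave 4.38 ± 0.87 (adjusted p = 0.00404). This call was lost without WT with BFP replicate 3 (adjusted p = 0.0566). KRT4, a keratin of moist layered epithelia, had 0.86 and 0.15 CPM in WT with BFP and 0.10, 0 and 0 in PDX1-/-, and fell by 3.85 ± 1.05 (adjusted p = 0.0274), which was lost without PDX1-/- replicates 2 or 3 or WT replicate 1 (largest adjusted p = 0.592). KRT23, a stress-responsive type I keratin, had 3.71 and 0.18 CPM in WT with BFP, so its own group spread as widely as the differences to the knockouts, which lay at 0.07 to 2.04 CPM. KRT4, KRT27, KRT37 and KRT222 were named after their values were seen, and so were the keratins outside the filter.

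The same genotypes were compared with WT among the libraries that received ISL1. These groups share no library with the BFP groups. They share the lines and the estimate of the spread with them, and same-numbered PAX6-/- libraries were taken as pairs. Agreement between the vectors is therefore not independent. In ISL1-/- 3 members were called, CLDN4 and KRT20 lower and CLDN5 higher, where 3.72% of all genes were called. In PAX6-/- 4 were called, CLDN4 and KRT20 lower and CLDN5 and KRT15 higher, against 3.56% of all genes. In PDX1-/- CLDN1 and CLDN5 were called, both higher, against 0.634% of all genes. Of the 6 members called in ISL1-/- with BFP, 5 had the same sign with ISL1 and 2 (CLDN4 and KRT20) passed again, and of the 5 called in PAX6-/- with BFP, all 5 had the same sign and 3 (CLDN4, KRT15 and KRT20) passed again. Of the 9 called in PDX1-/- with BFP, 1 kept its sign, and CLDN1 passed in both with opposite signs.

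CLDN4 had 467 and 579 CPM in WT with ISL1, against 259.9, 212 and 197 in ISL1-/- and 252.5, 245 and 289 in PAX6-/-. It fell by 1.23 ± 0.26 (adjusted p = 0.0135) and 1.00 ± 0.26 (adjusted p = 0.0421). The first call was lost without WT replicate 2 or ISL1-/- replicates 2 or 3 (largest adjusted p = 0.163) and the second in all 5 fits without 1 library (largest adjusted p = 0.345). KRT20 had 0.76 and 2.48 CPM in WT with ISL1 and at most 0.18 CPM in ISL1-/-, a log2 fold change of -4.18 ± 0.80 (adjusted p = 0.00656), lost without WT replicate 2 (adjusted p = 0.14). In PAX6-/- with ISL1, KRT20 had 1 count in each library against 155 counts in the WT pair. The ratio of WT to PAX6-/- was 88.6 (95% counting interval 29.7 to 434), and the test passed with an adjusted p of 0.0014 and in all 5 fits without 1 library.

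CLDN5 had 14.6 and 13.8 CPM in WT with ISL1, the lowest of any group, and 43.8, 46.6 and 48.9 in ISL1-/-, 44.2, 43.7 and 68.0 in PAX6-/- and 35.7 and 76.6 in PDX1-/-. No knockout library overlapped WT. The rise was 1.71 ± 0.28 (adjusted p = 0.00232), 1.87 ± 0.28 (adjusted p = 0.00123) and 1.98 ± 0.30 (adjusted p = 0.00926). It was lost in ISL1-/- without WT replicate 2 (adjusted p = 0.0523) and in PDX1-/- without either WT library (largest adjusted p = 0.145). The endothelial list summed to 36.4 to 44.4 CPM in WT with ISL1 and to 3.67 to 21.9 CPM in the 3 knockouts with ISL1, where CLDN5 rose. CLDN1 had 81.6 and 50.2 CPM in PDX1-/- with ISL1 against 22.9 and 26.1 in WT with ISL1, a rise of 1.43 ± 0.31 (adjusted p = 0.0404) that was lost without either WT library (largest adjusted p = 0.479). KRT15 had 8.88 and 6.53 CPM in WT with ISL1 and 13.8, 13.8 and 23.03 in PAX6-/-, a rise of 1.13 ± 0.28 (adjusted p = 0.0293) that was lost without PAX6-/- replicate 3, which holds the highest value, or without either WT library (largest adjusted p = 0.344).

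**Figure D3:**
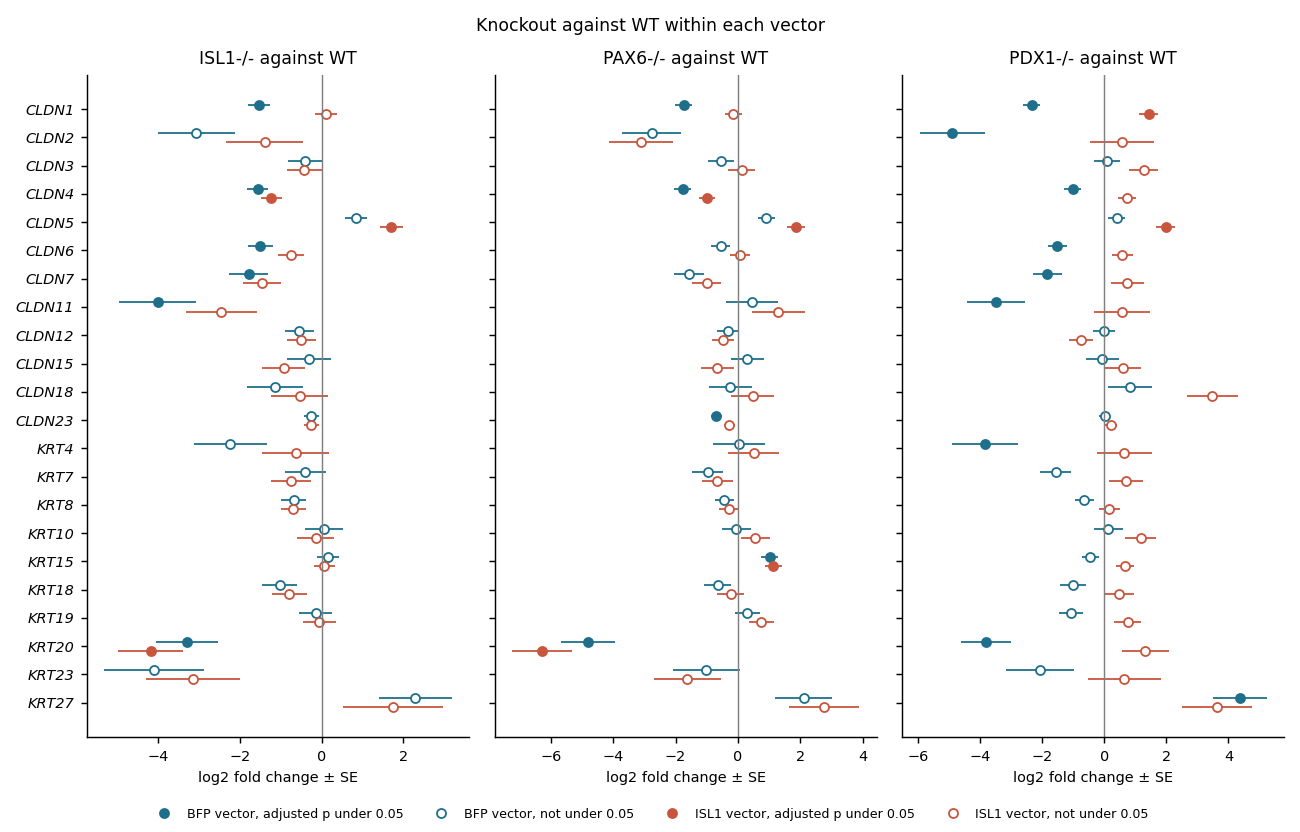
Log2 fold change of 22 members in each knockout against WT, with bars of 1 SE, separately for the libraries with BFP (blue) and with ISL1 (red). Filled points have an adjusted p under 0.05. In ISL1-/- and PAX6-/- the red points lie on the side of the blue ones for CLDN4 and KRT20, and in PDX1-/- blue points for CLDN1, CLDN6 and CLDN7 lie below 0 while the red ones lie above.

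The effect of the ISL1 vector within a genotype was examined next. No member was called in WT, ISL1-/- or PAX6-/-, where edgeR called 0.027%, 0.382% and 0.355% of all genes. At an unadjusted p under 0.05 there were 2, 6 and 2 of 35 members, beside 988, 1971 and 2658 of all 25884 genes. DESeq2 called 1, 0 and 0 members, and limma with library weights called 2, 3 and 2. The shares of all genes called by these tools are not given here, so the counts are not read as a result about the members. In WT the 2 members with an unadjusted p under 0.05 were CLDN1 and CLDN5. CLDN1 had 22.9 and 26.1 CPM with ISL1 and 48.2 and 64.5 with BFP (log2 fold change -1.20 ± 0.30, adjusted p = 0.425), and CLDN5 had 14.6 and 13.8 with ISL1 and 26.9 and 32.3 with BFP (-1.06 ± 0.29, adjusted p = 0.558). CLDN2 had 2.46 and 1.96 CPM in WT with ISL1 and 9.01 and 11.0 with BFP (-2.18 ± 1.06, adjusted p = 1). These groups of 2 do not overlap for any of the 3 genes. The same holds for other members with small fold changes, CLDN3, CLDN12 and CLDN18 among them. With so few libraries the lack of overlap is therefore not read as a difference. In ISL1-/- CLDN6 had 136, 135 and 120 CPM with ISL1 and 78.5, 60.8 and 79.8 with BFP, with a fold change of 0.84 ± 0.29 (adjusted p = 0.332).

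In PDX1-/- 17 members were called between vectors, 15 higher and 2 lower with ISL1, where 12.5% of all genes were called. Limma with library weights, and a fit of these 2 groups alone, called 0 of them, and the replicate block by description number called 6. The weights of the 2 ISL1 libraries were 0.0917 and 0.0992, against 0.943 to 2.14 for the 3 BFP libraries. The risen members were CLDN1, CLDN2, CLDN4, CLDN6, CLDN7, CLDN11, CLDN18, KRT4, KRT7, KRT8, KRT15, KRT18, KRT19, KRT20 and KRT37, and KRT222 and KRT27 fell. The ISL1 group is 2 libraries that differ strongly. On the 2506 genes called between PDX1-/- and WT with BFP, replicate 4 stood at 0.96 of the way from PDX1-/- (0) to WT (1) and replicate 2 at 0.44. These genes were chosen by the difference between those groups, so libraries of other groups also stand off 0. The ISL1-/- and PAX6-/- libraries with BFP stood at 0.27 to 0.44 and at 0.26 to 0.47. The position of replicate 2 is therefore not read as a move towards WT. The 6 hormone genes of the islet list summed to 132300 CPM in replicate 4 and 12140 CPM in replicate 2, against 15320 to 19940 CPM with BFP. Other marker lists rose in the same comparison, with 5 of 5 tested liver genes, 5 of 9 duct genes, 4 of 7 intestinal genes and 4 of 6 cell cycle genes called higher. The liver list summed to 6381 CPM in replicate 2 and 25210 in replicate 4, against 3558 to 4003 with BFP, the duct list to 424 and 247.9 against 110.9 to 135 and the cell cycle list to 265 and 464 against 149 to 183. Of the 6 islet hormone genes 3 were called higher, although their sum rose in replicate 4 alone. The lists of enterochromaffin and general endocrine markers fell in sum. Of 6 markers of enterochromaffin cells 4 were called lower, with sums of 1114 and 1061 CPM against 3075 to 3582 with BFP. The 8 general endocrine markers summed to 27480 and 27310 CPM against 49680 to 55810, with 2 called lower and 1 higher. Replicate 4 also has the high mitochondrial share, and the part of these lists and of that share in the keratin and claudin values was not tested.

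Some members rose in both ISL1 libraries. CLDN1 had 81.6 CPM in replicate 2 and 50.2 in replicate 4, against 9.35, 10.8 and 13.2 with BFP (log2 fold change 2.57 ± 0.27, adjusted p = 7.05e-05). CLDN6 had 186 and 473 CPM, against 84.5, 63.3 and 68.0 (2.19 ± 0.32, adjusted p = 0.000552). KRT15 had 12.0 and 12.7 CPM against 6.38, 3.75 and 4.46 (1.34 ± 0.26, adjusted p = 0.00444). KRT20 had 6.37 and 1.72 CPM against 0.15, 0.05 and 0.09 (5.39 ± 0.81, adjusted p = 0.000817). KRT4 had 1.02 and 0.74 CPM against at most 0.10 (4.62 ± 1.02, adjusted p = 0.00929). These 5 calls held in all 5 fits that left out 1 library of the 2 groups. KRT37, a hair keratin, had 1.68 and 0.12 CPM against no count in the 3 BFP libraries. The group is at least 14.8-fold higher when 3 counts per BFP library are allowed. Of its 99 counts 95 came from replicate 2 and 4 from replicate 4, so this bound rests on replicate 2.

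Most of the other rises rested on replicate 4. KRT18 had 268 CPM in replicate 2 and 1246 in replicate 4, against 251, 234.5 and 203 with BFP. KRT8 had 812 and 2068 CPM against 744, 749 and 629.6, and KRT7 had 12.2 and 74.8 CPM against 13.9, 8.67 and 7.47. CLDN7 had 119.9 and 916 CPM against 150.2, 138 and 126. In replicate 2 these 4 genes lay within or close to the BFP range. Without replicate 4 the log2 fold changes were 0.23 for KRT18, 0.20 for KRT8, 0.28 for KRT7 and -0.20 for CLDN7, and none of the 4 passed. KRT19 (1033 and 2906 CPM against 609, 545 and 509) and CLDN4 (534 and 1192 CPM against 305, 349.6 and 348) lay above BFP in both libraries and passed with replicate 4 (1.83 ± 0.39, adjusted p = 0.00775, and 1.37 ± 0.26, adjusted p = 0.00381) but not without it (adjusted p = 0.28 and 0.139). CLDN2, CLDN11, KRT222 and KRT27 also lost their calls without replicate 4. A fit without replicate 4 or without replicate 2 leaves 1 library in the group, and the share of all genes called in it is not given here. Counts of members called in such fits are therefore not read as a result about the members.

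CLDN18, a claudin of stomach and lung, rested on the other library. It had 291 CPM in replicate 2 and 15.5 in replicate 4, against 20.2, 25.7 and 37.7 with BFP, and no other library of the 21 exceeded 37.7 CPM. Its log2 fold change was 2.46 ± 0.69 (adjusted p = 0.0284) with both libraries and -0.86 without replicate 2. Replicate 2 was also the highest of all libraries in the summed stomach list (299.8 CPM, with GKN1 and MUC5AC at or under 3 counts in every library) and in the acinar list (272 CPM), and the part of other cells in its CLDN18 level was not tested. Of the 17 called members, 15 moved the same way in both libraries and 12 moved further in replicate 4, with a median difference of 0.68 in replicate 2 and 1.90 in replicate 4 on the log2(CPM + 0.5) scale.

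**Figure D4:**
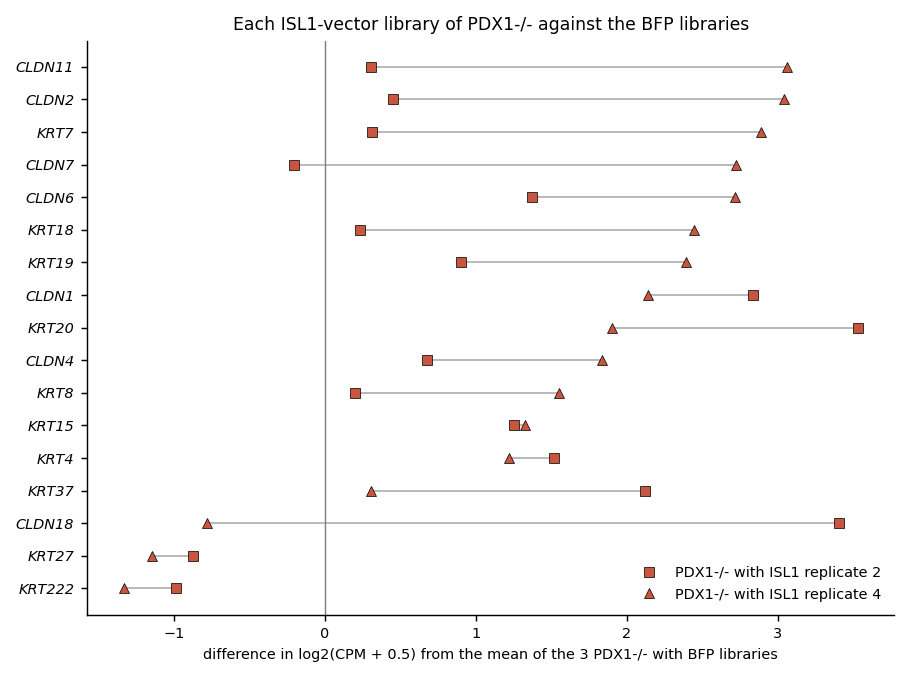
Difference of each of the 2 PDX1-/- libraries with ISL1 from the mean of the 3 PDX1-/- libraries with BFP, in log2(CPM + 0.5), for the 17 members called between the vectors. CLDN1, KRT15 and KRT4 lie close together in both libraries, while CLDN7, KRT18 and KRT7 are near 0 in replicate 2 (squares) and above 2 in replicate 4 (triangles), and CLDN18 is high in replicate 2 alone.

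The vector effect was compared between each knockout and WT. The difference from WT was called for 4 members in PDX1-/-, CLDN1, CLDN4, CLDN6 and KRT20, all more positive in PDX1-/-, where 1.19% of all genes were called. It was called for none in ISL1-/- (0.00386% of all genes) or PAX6-/- (0% of all genes). In each of these, 2 of 35 members, CLDN1 and CLDN5, had an unadjusted p under 0.05, beside 769 and 916 of all 25884 genes. DESeq2 called 1 and 0 members there, and limma with library weights 2 and 1. For CLDN1 in PDX1-/- the difference was 3.77 ± 0.41 (adjusted p = 0.00083), with a vector effect of 2.57 in PDX1-/- and -1.20 in WT, and this call held in all 9 fits without 1 library. The calls of CLDN4 and CLDN6 were lost in 8 of the 9 fits, with all but PDX1-/- with ISL1 replicate 2 (largest adjusted p = 0.296 and 0.294), and that of KRT20 in 7 of 9, with all but the 2 ISL1 libraries of PDX1-/- (largest adjusted p = 0.275).

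The knockouts with BFP were compared with each other in tests added after the values above were seen. ISL1-/- and PAX6-/- differed in 1 member, CLDN11, lower in ISL1-/- with a log2 fold change of -4.45 ± 0.91 (adjusted p = 0.0105), where 2.46% of all genes were called. ISL1-/- and PDX1-/- also differed in 1, KRT27, lower in ISL1-/- with -2.09 ± 0.58 (adjusted p = 0.0442), against 5.07% of all genes. PAX6-/- and PDX1-/- differed in 6, against 3.04% of all genes: CLDN11, KRT4, KRT15 and KRT19 were higher in PAX6-/-, and CLDN23 and KRT27 were lower. CLDN11 was higher in PAX6-/- than in PDX1-/- by 3.93 ± 0.88 (adjusted p = 0.0192). Its calls were lost without ISL1-/- replicates 1 or 3 in the first comparison (largest adjusted p = 0.0739), and without PAX6-/- replicate 3 or PDX1-/- replicates 1 or 3 in the last (largest adjusted p = 0.109). The KRT27 calls were lost in each fit without 1 library (largest adjusted p = 0.19 and 0.211).

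Partner genes of the same structures were counted from 5 lists. Of 21 tight junction partners, all tested, 2 were called lower in ISL1-/- with BFP (ILDR1 and PARD6B), 1 higher and 1 lower in PAX6-/- (JAM2 and PARD6B) and 1 lower in PDX1-/- (PARD6B). These counts, and those of the lists that follow, stand beside 5.59%, 5.51% and 9.68% of all genes called in ISL1-/-, PAX6-/- and PDX1-/- with BFP, and with lists this short 1 or 2 calls are not read as a result about the list. PARD6B, a polarity protein of the apical complex, was at 80.4 ± 8.92 CPM in the 2 WT libraries with BFP (mean ± SD) and at 26.1 ± 3.00, 30.9 ± 4.93 and 21.3 ± 4.25 (SD, n = 3 each) in ISL1-/-, PAX6-/- and PDX1-/-, and fell by 1.62 ± 0.30, 1.38 ± 0.30 and 1.92 ± 0.30. Of 15 epithelial transcription and splicing factors, OVOL1, a repressor that keeps epithelial identity, fell in all 3 knockouts (by 2.24 ± 0.39, 1.67 ± 0.38 and 2.82 ± 0.39, adjusted p = 0.00214, 0.0175 and 0.000434), ELF3 fell in PAX6-/- and KLF5 in PDX1-/-. Of 13 tested desmosome and keratin linkers, 0, 1 and 1 were called, with EVPL, a linker of layered epithelia, 4.62 ± 0.70 higher in PAX6-/- and PKP2 2.29 ± 0.45 lower in PDX1-/-. Of 12 adherens junction genes 1 was called in PAX6-/- and 2 in PDX1-/-. The adhesion gene NECTIN1 was higher in ISL1-/- and PDX1-/- (0.81 ± 0.22 and 0.87 ± 0.22), NECTIN2 was lower in PAX6-/- and PDX1-/- (-0.62 ± 0.17 and -0.59 ± 0.17), and NECTIN4 was lower in ISL1-/-, where it had at most 0.0467 CPM. Of 14 other intermediate filament genes 1, 0 and 1 were called, with the neurofilament gene NEFL 1.15 ± 0.26 lower in ISL1-/- and VIM 0.91 ± 0.28 lower in PDX1-/-. In fits that left out 1 of the 5 libraries in turn, the calls of PARD6B, OVOL1, ELF3 and JAM2 in PAX6-/- were lost without either WT library and without PAX6-/- replicates 1 or 3 (largest adjusted p = 0.289, for JAM2). Those of VIM and NECTIN2 were lost in all 5 fits, and those of NECTIN1, NECTIN4 and NEFL in 3 or 4 of them, NECTIN4 without WT replicate 1 or any ISL1-/- library (largest adjusted p = 0.4365). The calls of ILDR1, KLF5, EVPL and PKP2, and those of PARD6B and OVOL1 in ISL1-/- and PDX1-/-, held in all 5.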

How the data were processed

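The authors deposited a table of read counts per gene for 21 libraries, with exon coordinates and length, per the file headers. STAR 2.7.11b, featureCounts 2.1.1 and build GRCh38 are named in the submitters' processing notes. The strand setting is not given in the sources used here. Symbols were matched by gene ID. Of 62700 genes 62699 were used, since the ANK2 entry is broken over 3 lines.

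Counts were scaled by TMM and tested with edgeR 4.0.16 (quasi-likelihood F test, R 4.3.3) in 1 model of 8 groups over 21 libraries, without a block. filterByExpr with a minimum of 10 counts kept 25884 genes, over which p-values were adjusted (Benjamini-Hochberg, threshold 0.05, two-sided). The common biological coefficient of variation was 0.334. Fold changes use a prior count of 0.125. A count of 0 allows 3 counts, and intervals are 95% and cover counting error only. Of 17 comparisons, 3 between knockouts were added after values were seen. Alternatives used DESeq2 1.42.0 and limma 3.58.1. Same-numbered PAX6-/- libraries with BFP and ISL1 deviated together (correlations 0.16 to 0.39), so their numbers were taken to pair them, and a block by number called no member between those vectors either.

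Members and lists were chosen with earlier results of these data known. Named members are those called with a highest group mean of at least 5 CPM (up to 12 per comparison), the simple-epithelium keratins, claudins of at least 50 CPM, and the 5 with the largest ratio between groups. One adherens junction gene, and the ISL1-/- count that includes it, are not reported here. Promoter windows are from RefSeq on GRCh38.p14.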

Additional observations from a re-analysis of the deposited data

Results flagged for a closer look

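The effect of the ISL1 vector differed between PDX1-/- and WT for 4 members by the test of the difference itself. The difference was 3.77 on the log2 scale for CLDN1, 1.74 for CLDN4, 2.1 for CLDN6 and 5.13 for KRT20 (edgeR adjusted p = 0.00083, 0.0384, 0.0371 and 0.0336). CLDN1 was higher with ISL1 in both PDX1-/- libraries and lower with ISL1 in both WT libraries. Without PDX1-/- with ISL1 replicate 4, CLDN1 and KRT20 were again called (4.09 and 5.79), and CLDN4 and CLDN6 were not (1.06 and 1.28). Without both libraries of over 3% mitochondrial counts all 4 were called (4.11, 1.08, 1.30 and 5.81). No group has the 4 libraries needed to test a single library against its group.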

How the results depend on the processing

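For 58 calls and 18 uncalled differences given for named members, 1006 values were recomputed. Of these, 702 stayed on their side of the threshold, 230 lost a call, 70 gained one and 4 changed sign. The sign changed for CLDN18 in the PDX1-/- vector effect without ISL1 replicate 2 (-0.86, against up to 3.39 without 1 other library), and for CLDN7 there with the replicate block by description number (-0.24), without ISL1 replicate 4 (-0.20, against up to 2.72 without 1 other library) and without both libraries of over 3% mitochondrial counts (-0.18), an alternative chosen after seeing the data.

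Counts of called members are given in the order ISL1-/-, PAX6-/-, PDX1-/- (WT first for vector effects). The share of all genes called under each alternative is not given here or below. The counts therefore show how calls depend on processing, and not a trait of keratins and claudins. Reported counts were 0, 0, 0 and 17 for the vector effects, 6, 5 and 9 against WT with BFP, 3, 4 and 2 against WT with ISL1, 0, 0 and 4 for vector effects minus WT, and 1, 1 and 6 for ISL1-/- against PAX6-/-, ISL1-/- against PDX1-/- and PAX6-/- against PDX1-/-. With limma and library weights they were 2, 3, 2 and 0, then 19, 16 and 20, then 16, 11 and 0, then 2, 1 and 1, then 5, 12 and 13. With the compared groups alone they were 3, 2, 0 and 0, then 16, 12 and 17, then 17, 0 and 0, then 1, 0 and 0, then 5, 10 and 13. Without both high-mitochondrial libraries they were 2, 1, 0 and 10, then 16, 13 and 21, then 16, 9 and 8, then 1, 1 and 8, then 8, 10 and 14. With the replicate block by description number they were 0, 0, 0 and 6, then 14, 9 and 15, then 10, 6 and 4, then 0, 0 and 3, then 4, 5 and 9. By title number the replicate block gave 0 for ISL1-/- against PDX1-/- and 1 for the PDX1-/- vector effect minus WT. DESeq2 gave 1 for the WT vector effect, 6 for ISL1-/- against WT with ISL1, 1 and 11 for the ISL1-/- and PDX1-/- vector effects minus WT, and 3 and 3 for ISL1-/- against PAX6-/- and PDX1-/-. Without a filter there were 10 and 9 for ISL1-/- against WT with BFP and with ISL1, 9 for the PDX1-/- vector effect minus WT and 2 for ISL1-/- against PAX6-/-. Counts not given for DESeq2, the title block and no filter, and all with RLE size factors, were within 1.5 times the reported ones. The cause was not tested.

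Leaving out 1 library, of the groups compared or of the 2 with high mitochondrial shares, gave 0 to 1, 0 to 0, 0 to 0 and 8 to 27 for the vector effects, 2 to 12, 3 to 8 and 5 to 16 against WT with BFP, 0 to 8, 2 to 7 and 0 to 11 against WT with ISL1, 0 to 0, 0 to 0 and 1 to 19 for vector effects minus WT, and 0 to 3, 0 to 5 and 1 to 9 between knockouts. The highest counts came without PDX1-/- with ISL1 replicate 2 for the PDX1-/- vector effect, its difference from WT and PDX1-/- against WT with ISL1, and without replicate 4 of that group for the other ranges that end above 0. Across the 8 groups 13 to 27 members were called. Apart from PAX6-/-, same numbers do not pair libraries by the rule used: between ISL1-/- with BFP and with ISL1 every library correlated best with its own number, but 1 of 3 correlations was 0.099.

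Depth limits the 44 members outside the filter, which did not exceed 0.388 CPM.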

Other observations

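A few other members are given here as values, chosen after these were seen. KRT10, a keratin of differentiated layered epithelium, had 171 CPM in PAX6-/- with ISL1 replicate 3 and 221 CPM in PDX1-/- with ISL1 replicate 4, against 50.4 to 75.8 CPM in the other 19 libraries. CLDN12, with 6708 bases of exon sequence, had its lowest values in the same 2 libraries (40.6 and 26.9 CPM, against 59.9 to 112 CPM in the others). KRT8, with 6881 bases, went the other way and had its highest values in these 2 libraries (1519 and 2068 CPM). These are the libraries with over 3% mitochondrial counts, in which genes with little exon sequence stood higher. The part of either in the values of KRT10, CLDN12 and KRT8 was not tested. CLDN15, a cation pore of the gut, had 23.7 CPM in PDX1-/- with ISL1 replicate 4 and 3.11 to 11.4 CPM in the other 20 libraries. CLDN8, a claudin of kidney and colon, had 83 counts in the 2 WT libraries with ISL1 and 1 count in the 3 ISL1-/- libraries with ISL1, a ratio of 148 (95% counting interval 25.8 to 5898). KRT17 had 32 counts in the PDX1-/- libraries with ISL1, all but 1 of them in replicate 4, and 2 counts in the 3 with BFP.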
